A study of Mus musculus with 50 samples.

Results

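The CXC chemokines are a family of small secreted proteins that recruit leukocytes, named for the spacing of conserved cysteines near the start of the protein. The 10 ligand genes described here are a named subset of the family: Cxcl1, Cxcl2, Cxcl5, Cxcl9, Cxcl10, Cxcl11, Cxcl12, Cxcl13, Cxcl14 and Cxcl16. Other family genes, among them the ligands Cxcl3, Cxcl15 and Cxcl17, are described apart from them. All 10 members were measured, each by 1 probe set, among 19494 genes tested. The measurements were log2 signals from colon tissue RNA on 50 arrays, in 10 groups of 5 arrays each. FADD IEC-KO mice lack FADD in intestinal epithelial cells, and CASP8 IEC-KO mice lack caspase-8 there. The FADD deletion was combined with loss of Zbp1 (FADD IEC-KO Zbp1 -/-), loss of Mlkl (FADD IEC-KO Mlkl -/-) or epithelial loss of RIPK3 (FADD IEC-KO RIPK3 IEC-KO). The caspase-8 deletion was combined with loss of Mlkl (CASP8 IEC-KO Mlkl -/-). Fadd fl/fl and Casp8 fl/fl mice carried floxed genes and no epithelial deletion by their labels. Mice were kept under SPF conditions on regular chow and were 11 weeks old per the sample descriptions, within a range of 10 to 12 weeks for the whole study, and received no treatment that the labels name. The labels name neither the Cre line nor the strain background.

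The array titles form 2 number series, 1-30 and 86-124, and the labels do not say what the numbers mark. FADD IEC-KO and CASP8 IEC-KO mice occur in both series. Fadd fl/fl and the Zbp1 and Mlkl co-deletions occur in 1-30, and Casp8 fl/fl and the RIPK3 co-deletion in 86-124. Each comparison below was therefore made within a series, unless it is said to cross or compare them. CASP8 IEC-KO was thus set against Fadd fl/fl in 1-30 and FADD IEC-KO against Casp8 fl/fl in 86-124. Replicates are named by the number in the array title. Nothing in the labels states that each array is a separate mouse beyond its own title, so p-values refer to spread between arrays. That spread was estimated once per gene and shared by all 10 groups, although the groups differed in it. For Cxcl2 the SD was 2.30 in FADD IEC-KO and 0.09 in Fadd fl/fl of series 1-30. The shared value understates the spread of such variable groups and overstates that of quiet ones.

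CXC ligands act through G protein-coupled receptors and form gradients on cell surfaces and matrix that guide migrating cells. Ligands with an ELR motif, such as CXCL1, CXCL2 and CXCL5, bind CXCR2 and draw neutrophils, and their genes are induced by NF-kappaB downstream of TNF, IL-1 and IL-17. CXCL9, CXCL10 and CXCL11 bind CXCR3 on activated T and NK cells and are induced by interferons. CXCL12 and CXCL13 organise stroma and lymphoid follicles at rest, and in the intestine the epithelium, stroma and immune cells all contribute CXC ligands. FADD and caspase-8 start apoptosis from death receptors and restrain necroptosis, the lytic death carried out by RIPK3 and MLKL and engaged, among others, by the nucleic acid sensor ZBP1.

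Of the 10 members, 7 lie on chromosome 5 in the RefSeq annotation of GRCm38.p6. Cxcl1 neighbours Cxcl2, Cxcl5 neighbours Ppbp, Cxcl10 neighbours Cxcl11, and Art3 separates Cxcl9 from Cxcl10. Cxcl12 is on chromosome 6, Cxcl14 on chromosome 13 and Cxcl16 on chromosome 11. RefSeq annotates Cxcl11 as a transcribed pseudogene in this assembly. The 250 bases before the annotated start are printed for Cxcl1, Cxcl2, Cxcl9 and Cxcl10, the ELR and CXCR3 ligand genes with an entry in the RefSeq promoter table, so that these inducible genes can be compared. Capitals mark matches on either strand to the kappaB consensus, to TTCNNNGAA (a STAT binding element) or to TTTC, any 2 bases and TTTC (resembling an interferon response element).
Cxcl1, chr5:90890995-90891244, plus strand: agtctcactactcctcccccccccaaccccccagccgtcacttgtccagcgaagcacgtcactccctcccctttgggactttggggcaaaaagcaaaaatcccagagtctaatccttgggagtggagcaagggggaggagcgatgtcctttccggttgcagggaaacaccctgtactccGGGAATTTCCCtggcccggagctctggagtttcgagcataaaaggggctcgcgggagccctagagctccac
Cxcl2, chr5:90903649-90903898, plus strand: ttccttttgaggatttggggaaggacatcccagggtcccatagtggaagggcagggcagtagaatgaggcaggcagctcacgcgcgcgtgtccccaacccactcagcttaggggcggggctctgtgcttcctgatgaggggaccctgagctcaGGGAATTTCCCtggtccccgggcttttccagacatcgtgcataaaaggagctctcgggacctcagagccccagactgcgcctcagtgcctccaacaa
Cxcl9, chr5:92328080-92328329, minus strand: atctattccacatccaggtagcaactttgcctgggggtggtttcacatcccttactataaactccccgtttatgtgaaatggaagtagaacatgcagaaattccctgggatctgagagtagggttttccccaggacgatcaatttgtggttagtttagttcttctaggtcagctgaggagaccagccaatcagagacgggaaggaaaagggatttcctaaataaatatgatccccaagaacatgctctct
Cxcl10, chr5:92348890-92349139, minus strand: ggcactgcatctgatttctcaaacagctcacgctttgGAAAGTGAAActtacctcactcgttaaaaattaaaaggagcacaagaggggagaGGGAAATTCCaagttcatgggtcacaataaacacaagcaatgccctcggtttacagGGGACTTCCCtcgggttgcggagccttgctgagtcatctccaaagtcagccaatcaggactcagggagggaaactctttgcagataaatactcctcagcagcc
In Cxcl1 and Cxcl2 the capitals are 11 letters, since 2 overlapping kappaB matches cover the same stretch, and the letters are the same in both genes. The stretch runs from 71 to 61 bases before the start in Cxcl1 and from 97 to 87 in Cxcl2. Cxcl10 held 2 separate kappaB matches, from 159 to 150 and from 103 to 94 bases before the start, and 1 interferon-type match from 213 to 204. The Cxcl9 window held none of these letter strings, nor did those of Cxcl12 and Cxcl13, which are not printed. Among the 7 members with an entry, the kappaB consensus was found in 3, the STAT element in 1 (Cxcl14) and the interferon-type element in 2 (Cxcl10 and Cxcl14). Of all 32851 promoters in the table, 3.9% held a kappaB match, 7.02% a STAT match and 2.98% an interferon-type match in windows of the same length. These are letter matches and were not tested for binding.

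The targeted genes followed the labels where the probe sets could show it. Fadd signal was at most 6.50 on any array labelled FADD IEC-KO, alone or in a co-deletion, and at least 7.12 on any other array. Casp8 was at most 9.48 on CASP8 IEC-KO arrays and at least 9.90 elsewhere, and Mlkl at most 7.56 on Mlkl -/- arrays and at least 7.85 elsewhere. Zbp1 averaged 5.49 ± 0.50 (SD, n = 5) in the Zbp1 co-deletion and 5.68 ± 0.19 in Fadd fl/fl, and Ripk3 averaged 6.68 ± 0.13 in the RIPK3 co-deletion and 6.60 ± 0.19 in Casp8 fl/fl. The labels do not say whether those probes fall inside the deleted stretches. All 8 colon epithelium markers lay above the array median on all 50 arrays, as did 7 of 8 smooth muscle and 7 of 7 fibroblast markers, whereas 0 of 9 neutrophil, 0 of 9 T and NK cell and 0 of 9 B cell markers did. Of the CXC members only Cxcl12 and Cxcl16 did. Because the tissue was whole colon, fewer cells of a type and less RNA per cell cannot be told apart.

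**Figure D1:**
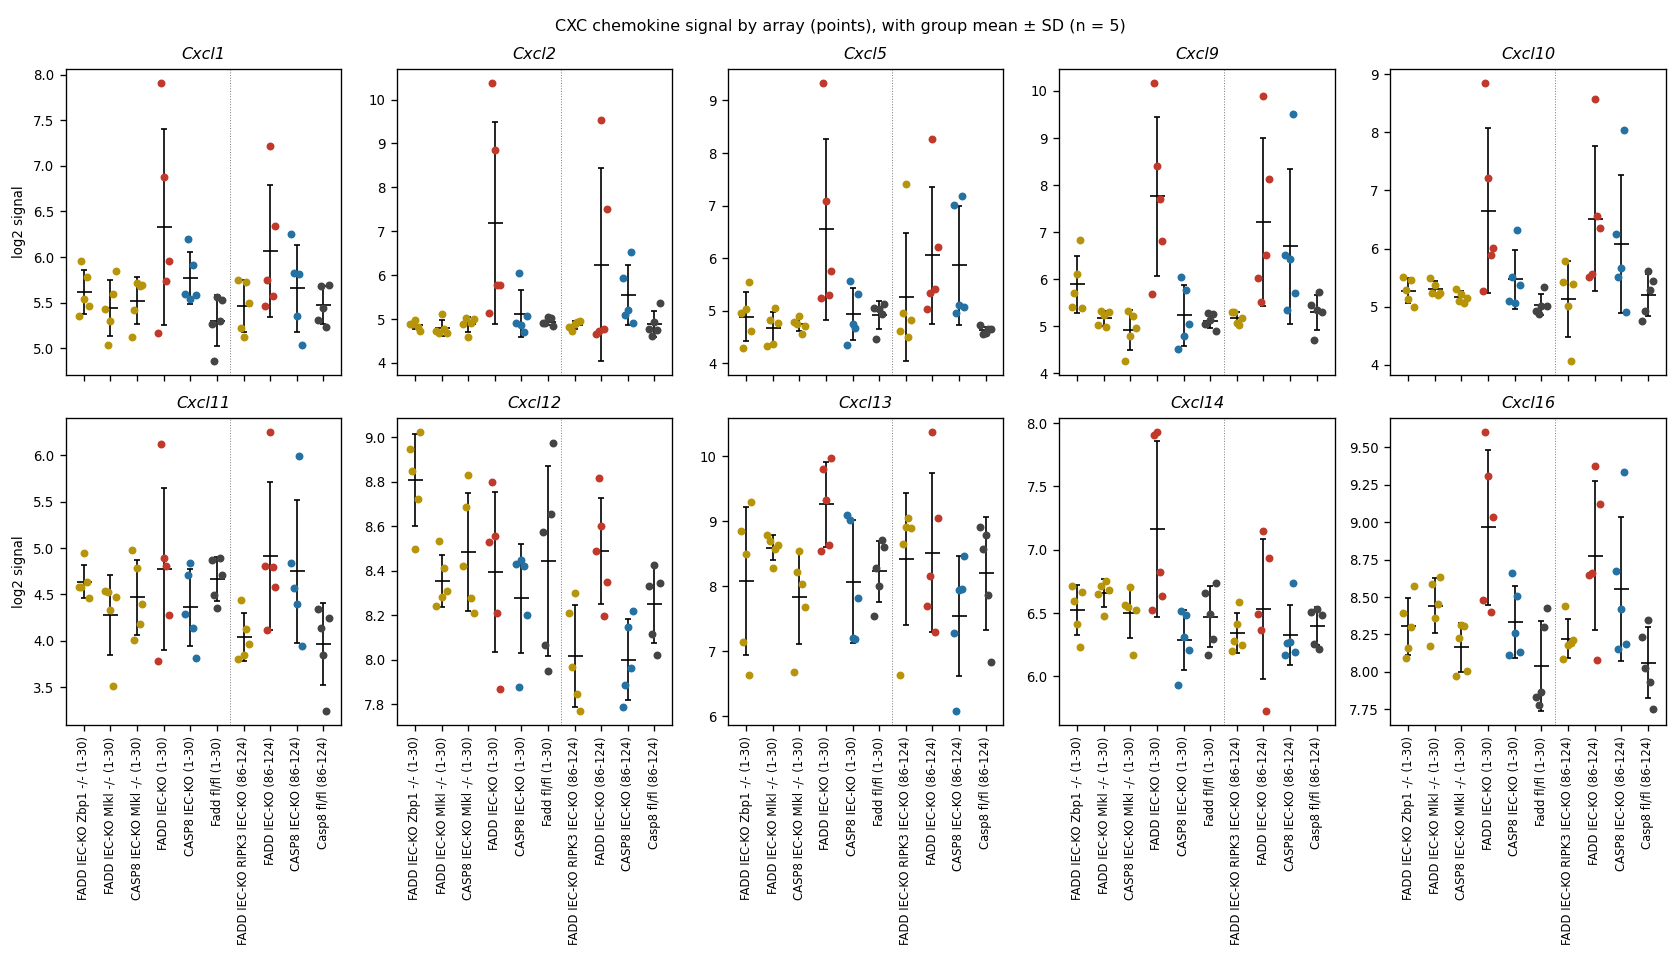
Log2 signal of each CXC chemokine on every array (points), with the group mean and SD (bars, n = 5), in the 6 groups of series 1-30 and, right of the dotted line, the 4 groups of series 86-124. FADD IEC-KO arrays (red) reach 10.4 for Cxcl2 and 10.2 for Cxcl9, while co-deletions (dark yellow) and floxed controls (dark grey) mostly lie together at the bottom; signal axes differ between panels.

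All 3 ELR ligands among the members rose in FADD IEC-KO of series 1-30, where 8.59% of all genes rose. In series 86-124, where 6.80% of all genes rose, 0 of 3 passed and all 3 had an unadjusted p under 0.05. Cxcl2, a neutrophil attractant, read 5.15, 10.38, 8.86, 5.77 and 5.78 on FADD IEC-KO arrays 21 to 25 of series 1-30, against 4.91, 4.90, 5.06, 5.02 and 4.84 on Fadd fl/fl arrays 26 to 30. All 5 FADD IEC-KO arrays lay above every Fadd fl/fl array, but 22 and 23 exceeded the others by about 3 log2 units or more. The difference was 2.24 ± 0.63 (SE), a 4.74-fold rise, with a limma adjusted p of 0.00926. In series 86-124, Cxcl2 read 4.67, 4.74, 9.53, 4.76 and 7.51 on FADD IEC-KO arrays 89, 95, 117, 120 and 124, against 4.78, 4.61, 4.92, 4.75 and 5.37 in Casp8 fl/fl. There only 117 and 124 stood above the floxed arrays, and the difference of 1.36 ± 0.63 did not pass (limma adjusted p = 0.157).

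Cxcl5, an ELR ligand made by epithelium among other cells, read 5.24, 9.34, 7.10, 5.31 and 5.75 in FADD IEC-KO of series 1-30, against 5.04, 4.47, 5.03, 4.94 and 5.12 in Fadd fl/fl. In series 86-124 it read 5.04, 5.34, 8.26, 5.41 and 6.21 in FADD IEC-KO, against 4.72, 4.56, 4.57, 4.64 and 4.66 in Casp8 fl/fl. FADD IEC-KO arrays lay above all floxed arrays of their series in both cases. The rise passed in 1-30 (1.62 ± 0.54, limma adjusted p = 0.0284), while the 86-124 difference of 1.42 ± 0.54 had a limma adjusted p of 0.0767. Cxcl1, the remaining ELR ligand among the members, averaged 6.33 ± 1.08 in FADD IEC-KO and 5.30 ± 0.28 in Fadd fl/fl of series 1-30, a rise of 1.03 ± 0.29 (limma adjusted p = 0.0110) with 4 of 5 arrays above all floxed ones. It averaged 6.07 ± 0.72 in FADD IEC-KO and 5.47 ± 0.21 in Casp8 fl/fl of series 86-124, which did not pass (0.60 ± 0.29, limma adjusted p = 0.189).

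Among the CXCR3 ligands, Cxcl9 had the largest difference of any member in both series. Its signals were 5.69, 10.18, 8.41, 7.71 and 6.82 in FADD IEC-KO of series 1-30, against 5.04, 5.28, 5.12, 5.26 and 4.89 in Fadd fl/fl. The groups did not overlap, and the rise was 2.64 ± 0.60, or 6.25-fold (limma adjusted p = 0.00164). In series 86-124, Cxcl9 read 6.01, 5.52, 9.89, 6.51 and 8.12 in FADD IEC-KO, against 5.44, 4.70, 5.33, 5.72 and 5.29 in Casp8 fl/fl. Replicate 95 lay within the floxed range and the other 4 above it, and the rise of 1.91 ± 0.60, or 3.77-fold, passed (limma adjusted p = 0.0298).

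Cxcl10, induced by interferon and NF-kappaB together, read 5.27, 8.85, 7.22, 5.89 and 6.01 in FADD IEC-KO of series 1-30, against 4.92, 4.87, 5.01, 5.34 and 5.02 in Fadd fl/fl. Of the FADD IEC-KO arrays only 21 overlapped the floxed range, and the rise was 1.62 ± 0.46 (limma adjusted p = 0.0104). In 86-124 it averaged 6.51 ± 1.24 in FADD IEC-KO and 5.21 ± 0.36 in Casp8 fl/fl, a difference of 1.31 ± 0.46 that missed the threshold (limma adjusted p = 0.0561). Cxcl11 passed in series 86-124 only. It averaged 4.78 ± 0.88 in FADD IEC-KO and 4.66 ± 0.24 in Fadd fl/fl of series 1-30 (0.11 ± 0.32, limma adjusted p = 0.857), but 4.91 ± 0.80 in FADD IEC-KO and 3.97 ± 0.44 in Casp8 fl/fl of 86-124, where the rise of 0.94 ± 0.32 passed (limma adjusted p = 0.0479). For Cxcl11 every Casp8 fl/fl array was at or below 4.35 and every Fadd fl/fl array at or above it. The difference between these floxed groups, −0.70 ± 0.32, did not pass (limma adjusted p = 0.455). That comparison crosses the series, so floxed line and series cannot be told apart. A test of whether the FADD difference changed between the series gave 0.83 ± 0.45 for Cxcl11 (limma adjusted p = 0.515).

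Of the ligands with other receptors, Cxcl16 rose in both series. Cxcl16, a membrane-bound ligand of CXCR6 that ADAM10 can shed, read 8.48, 9.60, 9.31, 8.40 and 9.04 in FADD IEC-KO of series 1-30, against 7.83, 7.78, 7.86, 8.30 and 8.42 in Fadd fl/fl. It read 8.65, 8.66, 9.38, 8.08 and 9.12 in FADD IEC-KO of series 86-124, against 8.23, 8.03, 8.35, 7.94 and 7.75 in Casp8 fl/fl. In each series 4 of 5 FADD IEC-KO arrays lay above all floxed arrays, the exceptions being 24 and 120. The rises were 0.93 ± 0.20 (limma adjusted p = 0.000991) and 0.72 ± 0.20 (limma adjusted p = 0.0139). Cxcl14, a ligand made by epithelial and stromal cells, averaged 7.16 ± 0.70 in FADD IEC-KO and 6.47 ± 0.24 in Fadd fl/fl of series 1-30, a rise of 0.69 ± 0.20 (limma adjusted p = 0.0119) that arrays 22 and 23, at 7.91 and 7.93, led. In series 86-124 it averaged 6.53 ± 0.55 in FADD IEC-KO and 6.40 ± 0.15 in Casp8 fl/fl (0.13 ± 0.20, limma adjusted p = 0.727).

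The ligands that pattern resting tissue did not pass in either series. Cxcl13, which draws B cells into follicles through CXCR5, averaged 9.26 ± 0.65 in FADD IEC-KO and 8.23 ± 0.47 in Fadd fl/fl of series 1-30 (1.03 ± 0.52, limma adjusted p = 0.167). It averaged 8.51 ± 1.22 in FADD IEC-KO and 8.20 ± 0.86 in Casp8 fl/fl of 86-124 (0.32 ± 0.52, limma adjusted p = 0.751). Cxcl12, the stromal ligand of CXCR4, averaged 8.39 ± 0.36 in FADD IEC-KO and 8.44 ± 0.43 in Fadd fl/fl of series 1-30, with a 95% interval of the difference from −0.37 to 0.27. In 86-124 it averaged 8.49 ± 0.24 in FADD IEC-KO and 8.25 ± 0.17 in Casp8 fl/fl, with an interval from −0.08 to 0.56.

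Counted together, 7 of 10 members rose and 0 fell in FADD IEC-KO against Fadd fl/fl of series 1-30, where 18.7% of all genes passed in either direction and 8.59% rose. The median difference was 1.03 over the members and −0.02 over all genes. The arrays did not overlap for 3 members, all higher, against 4.23% of all genes. In FADD IEC-KO against Casp8 fl/fl of series 86-124, 3 of 10 rose and 0 fell, where 11.0% of all genes passed and 6.80% rose. All 10 differences were positive there, with a median of 0.83 against −0.03 over all genes. Cxcl5 alone did not overlap (4.51% of all genes were apart and higher). In the test of whether the FADD difference changed between the series, 0 of 10 members passed in limma and 0 had an unadjusted p under 0.05. The share of all genes passing that test is not given here, so the count does not show that the series are alike.

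The counts depended on few arrays. Over all single leave-outs they ran from 2 to 7 in series 1-30 and from 0 to 4 in 86-124. Arrays 22, 23 and 117 were among the highest FADD IEC-KO arrays for most members, so lower counts without them follow in part from that. Without FADD IEC-KO array 22, only Cxcl9 (2.04, limma adjusted p = 0.0173) and Cxcl16 (0.77, limma adjusted p = 0.0102) still rose in series 1-30, and without array 23 4 members did. With both left out, the group held fewer arrays and 0 of 10 passed. Cxcl9 then stood at 1.62 ± 0.62 (limma adjusted p = 0.125), Cxcl16 at 0.60 (limma adjusted p = 0.0953) and Cxcl2 at 0.62 (limma adjusted p = 0.593). In series 86-124, leaving out array 117 left 0 of 10, with Cxcl9 at 1.24 (limma adjusted p = 0.183) and Cxcl16 at 0.57 (limma adjusted p = 0.0789). Leaving out array 124, or Casp8 fl/fl array 91 or 119, left 1 of 10. Fits to only the arrays compared called 3 members in series 1-30 and 0 in 86-124. Shares of all genes passing in these fits are not given here, so a lower count cannot be read as particular to the members.

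**Figure D2:**
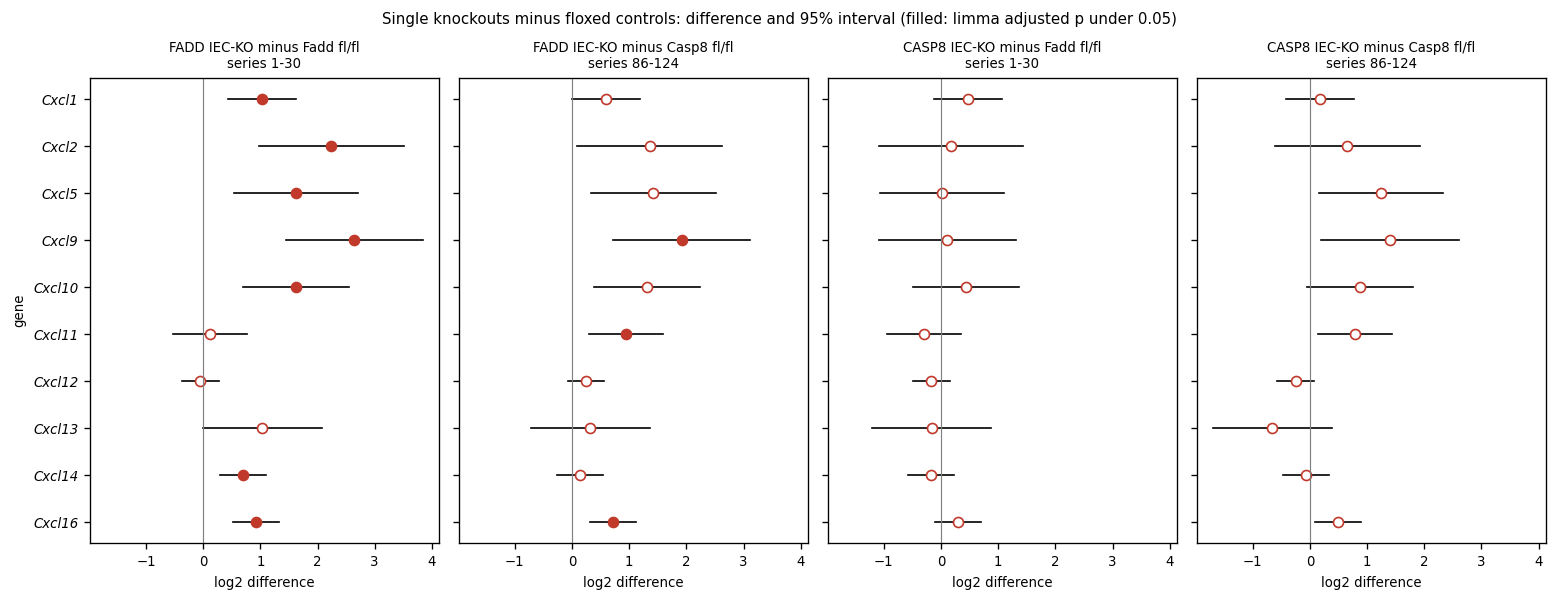
Log2 difference of each CXC chemokine between a single knockout and the floxed control of its series (points) with the 95% interval of the limma fit (lines). FADD IEC-KO has 7 filled points in series 1-30 and 3 in series 86-124, and CASP8 IEC-KO has 0 in both.

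Loss of caspase-8 in the epithelium gave no member past the threshold. In series 1-30, CASP8 IEC-KO against Fadd fl/fl had 0 of 10 passing in limma and 0 with an unadjusted p under 0.05, where 0.123% of all genes passed. Cxcl9 averaged 5.23 ± 0.65 in CASP8 IEC-KO and 5.12 ± 0.16 in Fadd fl/fl, with a 95% interval of the difference from −1.09 to 1.31, and Cxcl2 averaged 5.12 ± 0.53 in CASP8 IEC-KO and 4.94 ± 0.09 in Fadd fl/fl, with an interval from −1.09 to 1.44. These intervals rest on the spread shared by all groups and are wide, and rises of more than 2-fold lie inside them.

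In series 86-124, CASP8 IEC-KO against Casp8 fl/fl again had 0 of 10 passing in limma, where 2.46% of all genes did, but 4 members had an unadjusted p under 0.05. Cxcl5 read 7.01, 4.95, 5.11, 7.19 and 5.07 on CASP8 IEC-KO arrays 87, 92, 100, 104 and 108, against 4.56 to 4.72 in Casp8 fl/fl. All 5 knockout arrays lay above the floxed ones, as for 1.68% of all genes, and the difference of 1.24 ± 0.54 had a limma adjusted p of 0.203. Cxcl9 read 6.52, 5.34, 6.43, 9.52 and 5.70 in CASP8 IEC-KO, against 4.70 to 5.72 in Casp8 fl/fl (1.40 ± 0.60, limma adjusted p = 0.190). Array 104 was 3 log2 units above the next, and without it the difference was 0.70 (limma adjusted p = 0.630). Cxcl11 (0.78 ± 0.32, limma adjusted p = 0.173) and Cxcl16 (0.49 ± 0.20, limma adjusted p = 0.163) were the others, and Cxcl10 followed at 0.87 ± 0.46 (limma adjusted p = 0.311). Cxcl13 had the lowest estimate, −0.66 ± 0.52, with a mean of 7.54 ± 0.92 in CASP8 IEC-KO and 8.20 ± 0.86 in Casp8 fl/fl.

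Set directly against each other over both series, CASP8 IEC-KO lay below FADD IEC-KO for all 10 members. The median difference was −0.67 over the members and 0.01 over all genes. Cxcl9 fell by 1.52 ± 0.42 (limma adjusted p = 0.0263) and Cxcl14 fell by 0.54 ± 0.14 (limma adjusted p = 0.0187), so that 2 of 10 were lower, where 5.13% of all genes passed in either direction and 3.00% were lower. Within series 1-30, Cxcl9 averaged 5.23 ± 0.65 in CASP8 IEC-KO and 7.76 ± 1.69 in FADD IEC-KO, and within 86-124 it averaged 6.70 ± 1.65 in CASP8 IEC-KO and 7.21 ± 1.79 in FADD IEC-KO. Cxcl14 averaged 6.29 ± 0.24 in CASP8 IEC-KO and 7.16 ± 0.70 in FADD IEC-KO of series 1-30, and 6.33 ± 0.24 in CASP8 IEC-KO and 6.53 ± 0.55 in FADD IEC-KO of 86-124. The gap was thus wider in series 1-30 for both genes, a difference that was not tested. Cxcl2 (−1.39 ± 0.44, limma adjusted p = 0.0559), Cxcl16 (−0.43 ± 0.14, limma adjusted p = 0.0615) and Cxcl13 (−1.08 ± 0.37, limma adjusted p = 0.0708) came next. Leaving out FADD IEC-KO array 22, 23 or 117 left 0 of 10, as did a fit to only the arrays compared, and leaving out 124 left 1. Leaving out FADD IEC-KO array 21 gave 7, array 120 gave 5, and array 24 or 25 gave 4. Leaving out CASP8 IEC-KO array 104, the highest of its genotype for 7 members, gave 5 of 10, namely Cxcl2, Cxcl9, Cxcl10, Cxcl14 and Cxcl16. Leaving out CASP8 IEC-KO array 17 also gave 5, and array 16, 18, 92 or 108 left 1.

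Loss of Zbp1 on top of FADD went with lower signal of ligands from several receptor classes. Against FADD IEC-KO of series 1-30, 6 of 10 fell in FADD IEC-KO Zbp1 -/- and 0 rose, where 10.8% of all genes passed and 5.14% fell. The FADD IEC-KO arrays are the same as in the comparison with Fadd fl/fl. Cxcl2 read 4.89, 4.89, 4.98, 4.81 and 4.73 in the co-deletion, below all FADD IEC-KO values given above, and fell by 2.33 ± 0.63 (limma adjusted p = 0.0128). It was the only member whose arrays did not overlap between these groups, as for 2.77% of all genes in the lower direction. Cxcl5 averaged 4.89 ± 0.47 in the co-deletion, against 6.55 ± 1.73 in FADD IEC-KO, and fell by 1.66 ± 0.54 (limma adjusted p = 0.0388).

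Cxcl9 read 5.41, 5.70, 6.12, 6.84 and 5.38 in FADD IEC-KO Zbp1 -/- and fell by 1.87 ± 0.60 relative to FADD IEC-KO (limma adjusted p = 0.0346). Unlike in the other co-deletions, all 5 of its arrays stayed above the Fadd fl/fl arrays, although the difference from Fadd fl/fl of 0.77 ± 0.60 did not pass (limma adjusted p = 0.653; 1.79% of all genes were apart and higher in that comparison). Cxcl10 fell by 1.37 ± 0.46 (limma adjusted p = 0.0452), Cxcl14 fell by 0.64 ± 0.20 (limma adjusted p = 0.0320) and Cxcl16 fell by 0.66 ± 0.20 (limma adjusted p = 0.0252). Cxcl12 went the other way, at 8.81 ± 0.21 in FADD IEC-KO Zbp1 -/- and 8.39 ± 0.36 in FADD IEC-KO, without passing (0.42 ± 0.16, limma adjusted p = 0.0806). It had the highest Cxcl12 mean of the 10 groups. The count was 0 of 10 without FADD IEC-KO array 22 or without array 23. It was 2 of 10 without co-deletion array 2 or 3, and 3 of 10 without array 1 or 5. A fit to only the arrays compared left 0 of 10.

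Loss of Mlkl on top of FADD went with lower Cxcl2, Cxcl5 and Cxcl9. Against FADD IEC-KO of series 1-30, 3 of 10 fell in FADD IEC-KO Mlkl -/-, where 5.85% of all genes passed and 2.93% fell. Cxcl9 read 5.02, 5.32, 5.23, 4.98 and 5.30 in the co-deletion, all below the FADD IEC-KO minimum of 5.69, and fell by 2.59 ± 0.60 (limma adjusted p = 0.00692). Cxcl2 read 4.73, 4.68, 5.12, 4.77 and 4.69 and fell by 2.39 ± 0.63 (limma adjusted p = 0.0164). Cxcl5 read 4.32, 4.83, 4.37, 5.06 and 4.76 and fell by 1.88 ± 0.54 (limma adjusted p = 0.0275). These 3 members were also those whose arrays did not overlap (2.28% of all genes, lower). The difference was −1.34 ± 0.46 for Cxcl10 (limma adjusted p = 0.0712) and −0.89 ± 0.29 for Cxcl1 (limma adjusted p = 0.0603). Without FADD IEC-KO array 22 the count was 0 of 10 and without array 23 it was 1 of 10, whereas leaving out the low array 21 gave 7 of 10 and array 24 gave 6 of 10. A fit to only the arrays compared left 0 of 10.

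Epithelial loss of RIPK3 on top of FADD gave negative differences for all 10 members, 0 past the threshold in limma, with 7 at an unadjusted p under 0.05. In that comparison with FADD IEC-KO of series 86-124, 0.754% of all genes passed and 0.595% were lower. The median difference was −0.70 over the members and 0.01 over all genes. Cxcl9 read 5.30, 5.30, 5.07, 5.03 and 5.17 with RIPK3 co-deleted, all below the FADD IEC-KO minimum of 5.52, as for 1.94% of all genes (−2.04 ± 0.60, limma adjusted p = 0.0805). Cxcl12 averaged 8.02 ± 0.23 in the co-deletion and 8.49 ± 0.24 in FADD IEC-KO (−0.47 ± 0.16, limma adjusted p = 0.139). Cxcl5 stood apart on 1 co-deletion array, 112, at 7.42, while the others read 4.49 to 4.96. Cxcl2 on that array was 4.88, within the range of the other 4. Leaving out FADD IEC-KO array 95 gave 1 of 10.

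**Figure D3:**
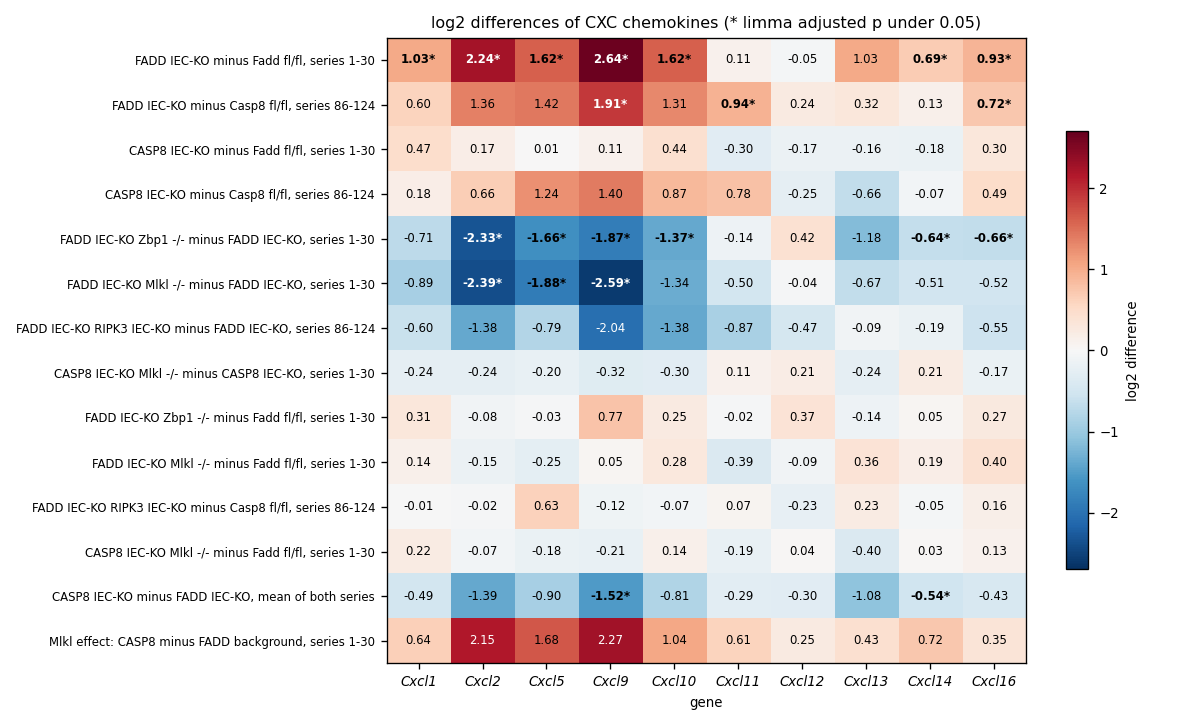
Log2 difference of each CXC chemokine (columns) in 14 comparisons (rows, first-named group minus second), coloured red for higher and blue for lower; an asterisk marks a limma adjusted p under 0.05. The blue rows of the co-deletions against FADD IEC-KO mirror the red rows of FADD IEC-KO against floxed controls, with which they share the FADD IEC-KO arrays, and the rows of co-deletions against floxed controls are pale apart from Cxcl9 with Zbp1 and Cxcl5 with RIPK3.

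Compared with floxed controls, 0 of the 40 member tests in the 4 co-deletions passed in limma, and 2 had an unadjusted p under 0.05. Over all genes, 1.07% passed for FADD IEC-KO Zbp1 -/-, 0.159% for FADD IEC-KO Mlkl -/-, 0.0769% for FADD IEC-KO RIPK3 IEC-KO and 0.0462% for CASP8 IEC-KO Mlkl -/-. The lower of these shares leave little to read from a count of 0. The pair of tests with an unadjusted p under 0.05 were Cxcl12 with Zbp1 (0.37 ± 0.16, limma adjusted p = 0.299) and Cxcl16 with FADD and Mlkl (0.40 ± 0.20, limma adjusted p = 0.529). For Cxcl2 the 95% interval of the difference from Fadd fl/fl ran from −1.41 to 1.12 with Mlkl and from −1.35 to 1.18 with Zbp1, and from Casp8 fl/fl it ran from −1.29 to 1.24 with RIPK3.

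Loss of Mlkl on top of caspase-8 gave 0 of 10 in limma and 0 with an unadjusted p under 0.05 against CASP8 IEC-KO, where 0.421% of all genes passed. Cxcl9 averaged 4.91 ± 0.42 in the co-deletion, against 5.23 ± 0.65 in CASP8 IEC-KO, and Cxcl2 averaged 4.88 ± 0.17 in the co-deletion, against 5.12 ± 0.53 in CASP8 IEC-KO. Whether the effect of Mlkl loss differed between the CASP8 and FADD backgrounds was tested directly. All 10 estimates (change with Mlkl loss in the CASP8 background minus that in the FADD background) were positive, with Cxcl9 at 2.27 ± 0.84 (limma adjusted p = 0.308) and Cxcl2 at 2.15 ± 0.89 (limma adjusted p = 0.354). Of the 10, 0 passed in limma, 4 had an unadjusted p under 0.05, and 0.0154% of all genes passed.

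Members differed in how their 10 group means were ordered. FADD IEC-KO of series 1-30 had the highest mean for Cxcl1, Cxcl2, Cxcl5, Cxcl9, Cxcl10, Cxcl13, Cxcl14 and Cxcl16, FADD IEC-KO of 86-124 for Cxcl11 and FADD IEC-KO Zbp1 -/- for Cxcl12. In every member's order, each group overlapped the next at the level of arrays. The groups were sorted by mean first, so overlap of neighbours was likely in advance and says little about separation. Apart from the single knockouts, Cxcl2 means spanned only 4.80 to 4.94 across the 4 co-deletions and both floxed groups, and Cxcl10 means 5.03 to 5.31. Cxcl13 means spanned 7.54 to 9.26 over all groups, with SDs up to 1.22 within a group.

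Within FADD IEC-KO a few arrays were high for most members. Array 22 was the highest of the 10 FADD IEC-KO arrays for 6 members and 117 for 2 and second for 6, while 23 was the third for 7. Cxcl12 did not follow this order, being highest on array 95 (8.82), and for Cxcl13 array 25 (9.98) came second to 117 (10.37). Over the 50 arrays, Pearson's r of Cxcl12 with the other members ran from 0.033 to 0.367, and that of Cxcl13 from 0.115 to 0.534. Array 22 exceeded all floxed arrays of its series for 9 of 10 members, and 117 did for 10 of 10, where 28.7% and 24.4% of all genes did so on the same arrays. At the low end, arrays 21, 95 and 120 exceeded them for 4 members each, where 19.9%, 20.5% and 23.2% of all genes did. In CASP8 IEC-KO, array 104 exceeded them for 8 members and array 18 for 0, where 23.8% and 16.4% of all genes did.

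**Figure D4:**
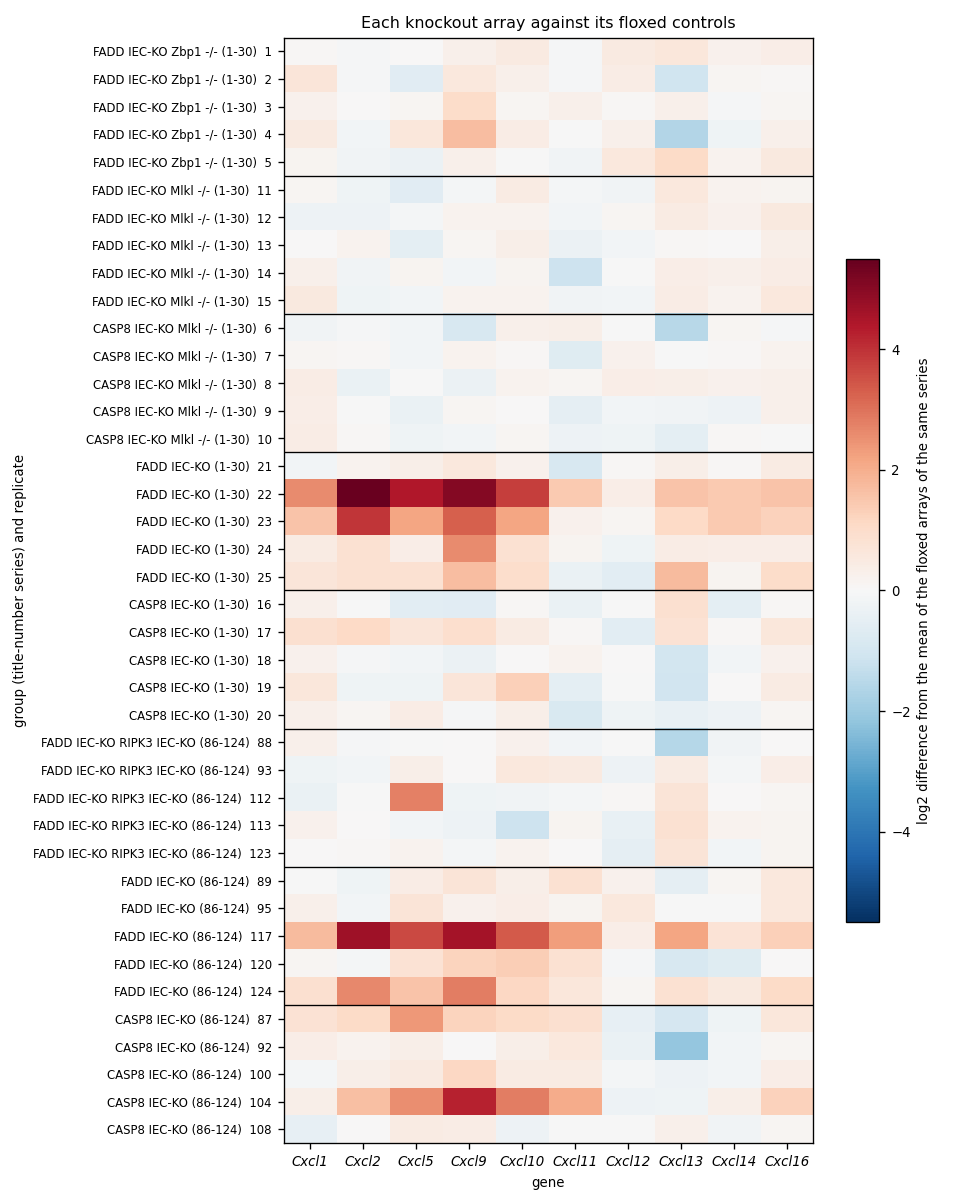
Log2 difference of each knockout array (rows, by group and replicate) from the mean of the floxed arrays of its series, for each CXC chemokine (columns). FADD IEC-KO arrays 22, 23, 117 and 124 and CASP8 IEC-KO array 104 form red bands across Cxcl2, Cxcl5, Cxcl9 and Cxcl10, while Cxcl12 stays pale throughout and Cxcl13 shows red and blue arrays in most groups.

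Markers of several leukocyte types were higher on the arrays where members were high, and their part in the results was not tested. In FADD IEC-KO against Fadd fl/fl of series 1-30, 8 of 9 measured neutrophil markers rose, where 8.59% of all genes did. They were led by S100a8 (3.82 ± 0.89, limma adjusted p = 0.00212) and S100a9 (2.62 ± 0.69, limma adjusted p = 0.00602), subunits of calprotectin. The mean of the 9 markers ranged from 4.61 to 9.05 over FADD IEC-KO arrays and from 4.31 to 4.49 over Fadd fl/fl arrays. It was 9.05 on array 22 and 7.36 on array 23, the arrays with the highest Cxcl2. In series 86-124, 1 of 9 rose (Csf3r, 1.02 ± 0.34, limma adjusted p = 0.0439), where 6.80% of all genes did. The neutrophil mean there ranged from 4.40 to 7.80 in FADD IEC-KO and from 4.43 to 4.66 in Casp8 fl/fl, with 7.80 on array 117. The markers fell in FADD IEC-KO Zbp1 -/- (9 of 9) and FADD IEC-KO Mlkl -/- (7 of 9) against FADD IEC-KO, where 5.14% and 2.93% of all genes fell. On the RIPK3 co-deletion array 112, where Cxcl5 was high, the neutrophil mean was 4.66, against 4.39 to 4.66 over that group.

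Of all genes, 8.59% rose in FADD IEC-KO of series 1-30 and 6.80% in 86-124. Monocyte and macrophage markers rose for 8 of 9 genes in series 1-30, among them Fcgr3 (1.23 ± 0.23, limma adjusted p = 0.000285) and Ly6c2 (1.86 ± 0.36, limma adjusted p = 0.000389), and for 7 of 9 in 86-124. Their mean ranged from 7.49 to 8.55 in FADD IEC-KO and from 6.81 to 7.56 in Fadd fl/fl. T and NK cell markers rose for 4 of 9 and 1 of 9, with Gzmb, the cytotoxic granule protease, at 0.93 ± 0.19 in series 1-30 (limma adjusted p = 0.000557). Cxcr3, in the same list, had a lower mean in FADD IEC-KO (6.49 ± 0.18) than in Fadd fl/fl (6.71 ± 0.13), without passing. The T and NK cell mean ranged from 5.32 to 6.00 in FADD IEC-KO and from 5.11 to 5.45 in Fadd fl/fl. B cell and follicle markers had 0 of 9 passing in limma in both series, where 18.7% and 11.0% of all genes passed in either direction. None of these markers had an unadjusted p under 0.05. The B cell and follicle mean ranged from 5.27 to 6.95 in FADD IEC-KO and from 5.45 to 6.42 in Fadd fl/fl. The ranges of these groups overlapped for the monocyte and macrophage, the T and NK cell and the B cell lists alike. All 8 smooth muscle markers fell in series 1-30 and 2 of 8 in 86-124, with a list mean of 9.23 to 10.77 in FADD IEC-KO and 10.94 to 11.08 in Fadd fl/fl of series 1-30. Of the fibroblast markers, 3 of 7 fell in each series, beside the same shares of all genes in either direction.

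**Figure D5:**
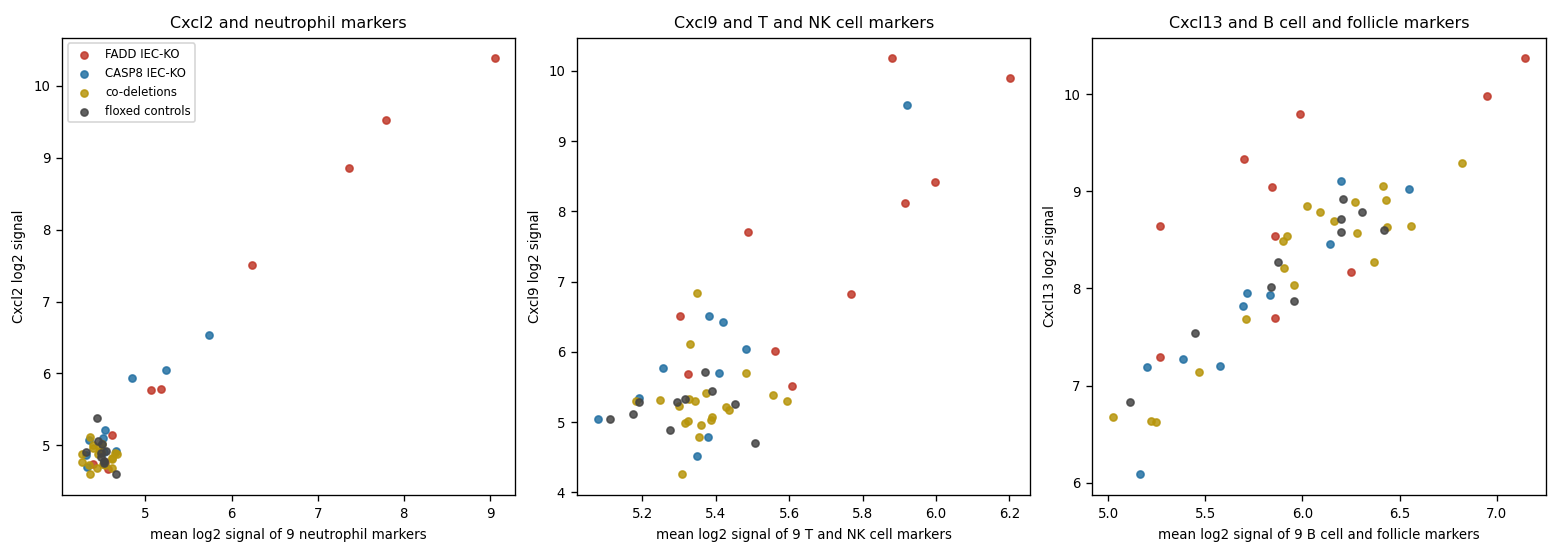
Log2 signal of Cxcl2, Cxcl9 and Cxcl13 (vertical axes) against the mean log2 signal of 9 marker genes each of neutrophils, of T and NK cells and of B cells and follicles (horizontal axes) on 50 arrays. Cxcl2 rises with the neutrophil mean along FADD IEC-KO arrays up to 9.05 on the horizontal axis, while Cxcl13 follows the B cell mean among arrays of all genotypes.

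Of 13 other ligands, receptors and scavengers of the CXC system measured, 2 rose and 1 fell in FADD IEC-KO against Fadd fl/fl of series 1-30, where 18.7% of all genes passed, with a list median of −0.01. Cxcl3, a further ELR ligand, rose by 0.83 ± 0.25 (limma adjusted p = 0.0167), and Cxcr2, the ELR receptor and a neutrophil marker here, rose by 0.95 ± 0.30 (limma adjusted p = 0.0207). Pf4, a platelet chemokine, fell by 0.37 ± 0.13 (limma adjusted p = 0.0460). In series 86-124, where 11.0% of all genes passed, 0 of 13 passed in limma and 0 had an unadjusted p under 0.05. In FADD IEC-KO Zbp1 -/- against FADD IEC-KO, where 10.8% of all genes passed, 2 fell and 3 rose. Cxcl3 (−0.78) and Cxcr2 (−1.01) fell, and Pf4 (0.53), Cxcr3, the receptor of the interferon-induced ligands (0.28), and Ackr1, a chemokine-binding receptor of venules (0.44), rose, with limma adjusted p from 0.00832 to 0.0392. In CASP8 IEC-KO against FADD IEC-KO, where 3.00% of all genes were lower, Cxcr2 was the only one to fall, by 0.75 ± 0.21 (limma adjusted p = 0.0281). Receptor genes of the other member ligands, Cxcr4, Cxcr5 and Cxcr6, passed in none of these comparisons.

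The list for the NF-kappaB and IL-17 side holds cytokines, receptors, signalling proteins and feedback inhibitors upstream of the ELR ligands. Of its 20 genes, 11 rose and 0 fell in FADD IEC-KO against Fadd fl/fl of series 1-30, where 8.59% of all genes rose, with a list median of 0.37. Among them were Tnf (2.32 ± 0.43, limma adjusted p = 0.000275), Il1b (3.55 ± 0.86, limma adjusted p = 0.00301), the signalling adaptor Myd88 (0.76 ± 0.18, limma adjusted p = 0.00239) and the feedback inhibitor Tnfaip3 (0.84 ± 0.20, limma adjusted p = 0.00233). In FADD IEC-KO against Casp8 fl/fl of series 86-124, 5 of 20 rose, where 6.80% of all genes did, led by the TNF receptor Tnfrsf1a (0.77 ± 0.16, limma adjusted p = 0.00113). In CASP8 IEC-KO against Casp8 fl/fl, where 2.46% of all genes passed in either direction, 2 of 20 rose, Il23a (0.50 ± 0.13, limma adjusted p = 0.0317) and Tnfrsf1a (0.58 ± 0.16, limma adjusted p = 0.0387). Against FADD IEC-KO, 7 of 20 fell with Zbp1 loss and 6 of 20 with Mlkl loss, where 5.14% and 2.93% of all genes fell. Tnf fell by 1.75 ± 0.43 with Zbp1 loss (limma adjusted p = 0.00687) and by 2.08 ± 0.43 with Mlkl loss (limma adjusted p = 0.00350).

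In FADD IEC-KO against floxed controls, 8.59% of all genes rose in series 1-30 and 6.80% in 86-124. On the interferon side, which includes the receptors and transcription factors that induce CXCR3 ligands, 6 of 15 measured genes rose in series 1-30 and 5 of 15 in 86-124, and 0 fell in both. The transcription factors Irf8 (0.60 ± 0.10, limma adjusted p = 0.000120) and Irf1 (0.89 ± 0.18, limma adjusted p = 0.000459) had the smallest p in series 1-30. Both also rose in 86-124, where Stat2 led at 0.99 ± 0.18 (limma adjusted p = 0.000330). With loss of Mlkl, Irf1 fell by 0.89 ± 0.18 (limma adjusted p = 0.00265) relative to FADD IEC-KO, and with loss of RIPK3, Irf8 fell by 0.41 ± 0.10 (limma adjusted p = 0.0440). Of 10 lymphoid follicle genes, 2 rose in each series, Madcam1 (0.79 ± 0.22, limma adjusted p = 0.00802) and Tnfsf13b (0.30 ± 0.11, limma adjusted p = 0.0440) in 1-30 and Ltbr (0.38 ± 0.07, limma adjusted p = 0.000708) and Tnfsf13b (0.40 ± 0.11, limma adjusted p = 0.0139) in 86-124. A list this short leaves little to read from 2 genes. Of 8 genes that process or clear CXC ligands, 3 rose in series 1-30, including Adam10, the CXCL16 sheddase (0.24 ± 0.08, limma adjusted p = 0.0327), and the neutrophil proteases Mmp8 and Mmp9. In 86-124, 0 of the 8 passed in limma and 1 had an unadjusted p under 0.05.

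The genes whose signal was most like that of each member over the 50 arrays are given here by Pearson's r as a description, with no test. The arrays share groups, tissue and processing. Rank correlations were lower than r for all 20 pairs named. Cxcl2 was most like S100a9 (r = 0.976), a neutrophil calprotectin subunit, and Acod1 (r = 0.973), an enzyme of activated myeloid cells. Spearman's rho was 0.567 for S100a9 and 0.477 for Acod1, and over the 40 arrays without FADD IEC-KO r was 0.789 and 0.780. Cxcl5 was most like S100a8 (0.866) and Cemip (0.865), and Cxcl1 most like Il1a (0.873) and Hdc (0.869), the histamine-forming enzyme. For Cxcl1 the values without FADD IEC-KO were only 0.465 and 0.388.

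Cxcl9 was most like Gbp4 (r = 0.933) and Tgtp2 (r = 0.932), interferon-induced GTPases, and Cxcl10 most like Gbp7 (0.882), of the same class, and Cd274 (0.882), which encodes PD-L1. Tgtp2 remained at 0.878 with Cxcl9 over the 40 arrays without FADD IEC-KO. Cxcl16 was most like Ctsc (0.931), a lysosomal protease, and H2-Eb1 (0.897), an MHC class II chain, with 0.841 and 0.840 over those 40 arrays. Cxcl13 was most like Cd79b (0.861), a subunit of the B cell receptor, and Cd37 (0.850), and these were 0.890 and 0.895 without FADD IEC-KO. Cxcl12 was most like Eng (0.772), an endothelial receptor, and Gpx3 (0.765). Cxcl11 was most like Nod2 (0.790) and Slfn1 (0.717), which were 0.735 and 0.509 without FADD IEC-KO. Spearman's rho with Cxcl11 was 0.663 for Nod2 and 0.387 for Slfn1. Cxcl14 was most like Timp1 (0.822) and Igfbp4 (0.821), which were 0.280 and 0.396 without FADD IEC-KO.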

How the data were processed

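Colon tissue RNA, 100 ng per the labels' protocols, was hybridised to Affymetrix whole-transcript arrays, 5 per group. Signals are on the log2 scale for each probe set as deposited, made with Expression Console and Transcriptome Analysis Console per the submitters' processing notes, which name no version or normalization algorithm. Array medians ran from 6.41 to 6.47. Of 22142 probe sets, 19527 carried 1 gene symbol and 2615 none. The brightest probe set of a gene was kept (33 dropped), leaving 19494 genes. There were no detection calls. Each of the 10 groups had its own mean in limma 3.58.1 (R 4.3.3), fitted to all 50 arrays (residual degrees of freedom 40), with Benjamini-Hochberg adjustment across all genes and a threshold of 0.05. SEs come from this model, with 1 estimate of spread per gene shared by all groups. It was run on simulated data with the same spread in every group and an equal shift on all 5 arrays of a group. That simulation does not cover unequal spreads or differences carried by few arrays, as seen here. The number of arrays limits precision. Members and lists were chosen with earlier results of these data known and are no independent support. All members and CXC family genes could be named. From other lists, up to 4 genes of smallest adjusted p were named, and for likeness the 2 genes of highest correlation that are neither members nor predicted genes. Mmp8 and Mmp9 are in both the neutrophil and the processing list. Of the CXC family list, Cxcr2 is also in the neutrophil list, Cxcr3 and Cxcr6 in the T and NK cell list and Cxcr5 in the B cell and follicle list. Alternatives were a 2-fold requirement, only the arrays compared, quantile normalization, trend and robust moderation, group variance weights, pooled series, removal of the dimmest 40% of genes, the mean of probe sets, and leaving out arrays singly or 22 and 23 together. Promoter sequences are RefSeq's for GRCm38.p6.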

Additional observations from a re-analysis of the deposited data

Results flagged for a closer look

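Within groups of 5 arrays, a sample was looked at again where its gap to the nearest other array exceeded 0.71 of the group's range (Dixon's 95% value). This held for 8 of 100 pairs of member and group, where chance gives about 1 in 20. Of these, 5 were the highest array of a group and 3 the lowest. Cxcl5 on FADD IEC-KO RIPK3 IEC-KO array 112 was 7.42 with the next at 4.96 (ratio 0.838). On CASP8 IEC-KO array 104, Cxcl9 was 9.52 with the next at 6.52 (0.718) and Cxcl14 was 6.74 with the next at 6.27 (0.820). Cxcl2 on CASP8 IEC-KO array 17 was 6.04 with the next at 5.07 (0.729). Cxcl2 on FADD IEC-KO Mlkl -/- array 13 was 5.12 with the next at 4.77 (0.792). The low ones were Cxcl13 on FADD IEC-KO RIPK3 IEC-KO array 88, at 6.63 with the next at 8.65 (0.832), Cxcl11 on FADD IEC-KO Mlkl -/- array 14, at 3.51 with the next at 4.34 (0.805), and Cxcl5 on Fadd fl/fl array 27, at 4.47 with the next at 4.94 (0.723). The mean of 9 B cell and follicle markers was 5.25 on array 88, the lowest of its group. The mean of 9 neutrophil markers was 5.74 on array 104 and 5.24 on array 17, the highest of their groups. No FADD IEC-KO array of the single knockout met this criterion for any member.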

How the results depend on the processing

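Counts of passing members moved with the choice of arrays and variance. Fitting only the arrays compared left 3 members in FADD IEC-KO against Fadd fl/fl, and 0 in FADD IEC-KO against Casp8 fl/fl, in both the Zbp1 and Mlkl co-deletions against FADD IEC-KO, and in CASP8 IEC-KO against FADD IEC-KO. Removing the dimmest 40% of genes dropped 6 members by construction (Cxcl1, Cxcl2, Cxcl5, Cxcl9, Cxcl10, Cxcl11) and left 2, 1, 2 and 0 in FADD IEC-KO against Fadd fl/fl, FADD IEC-KO against Casp8 fl/fl, and the Zbp1 and Mlkl co-deletions against FADD IEC-KO. A 2-fold requirement left 1 member in FADD IEC-KO against Casp8 fl/fl and 1 in CASP8 IEC-KO against FADD IEC-KO. Pooling both series gave 6 in FADD IEC-KO against Casp8 fl/fl, 1 in the Zbp1 co-deletion and 3 in the RIPK3 co-deletion, each against FADD IEC-KO. Without arrays 22 and 23 together the count was 0 in FADD IEC-KO against Fadd fl/fl, in both co-deletions against FADD IEC-KO of series 1-30 and in CASP8 IEC-KO against FADD IEC-KO; without them the groups hold fewer arrays. Leaving out 1 array at a time gave 2 to 7 in FADD IEC-KO against Fadd fl/fl, 0 to 4 against Casp8 fl/fl, 0 to 7 for the Zbp1 co-deletion, 0 to 7 for the Mlkl co-deletion, 0 to 1 for the RIPK3 co-deletion and 0 to 7 for CASP8 IEC-KO against FADD IEC-KO. The other 8 comparisons had 0 throughout. Shares of all genes under these settings are not given for any comparison, so the moves cannot be read as particular to the members. The causes of these moves were otherwise not tested. Of single-member values, 2521 of 2686 kept their side of the threshold, 124 lost it and 41 gained it, and no called value changed sign, while 63 uncalled differences did. No paired analysis was possible because each array has its own title number and no number is shared between groups. Of the members, 6 lay among the dimmest 40% of genes, where signal over background limits the size of a difference that can be read.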
